A study of Mus musculus with 12 samples.

Results

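The genes described here are the 199 mouse genes named Zfp with a number that were measured above background in alveolar macrophages, of 328 such genes on the array. They were chosen by name (platform symbol Zfp followed by a digit, without the CCCH mRNA decay genes Zfp36, Zfp36l1 and Zfp36l2) and by signal: at least 1 probe had to be detected, at a detection p under 0.05, on 3 or more of the 12 arrays. Where several probes of a gene passed, the probe with the highest mean signal stands for the gene. The other 129 Zfp genes did not pass, 105 of them with no detection of their best probe on any array. RNA came from alveolar macrophages of C57Bl/6 mice, 1 array (Illumina MouseWG-6 v2 BeadChip) per mouse, obtained by lavage 60 days after an oropharyngeal instillation. The 6 control mice received 35% surfactant in saline, and the 6 MWCNT mice received 100 µg of multiwalled carbon nanotubes in the same vehicle. The comparison asked how macrophage transcripts differed 60 days after exposure to a fibre that macrophages take up and hardly degrade. The purity of the cells was above 90% according to the labels, and neither age nor sex of the mice was given. Cell composition and transcript per cell cannot be told apart in such bulk RNA.

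Most Zfp genes encode C2H2 zinc finger proteins, in which short loops held by a zinc ion read out DNA bases, and many of them carry a KRAB domain. KRAB proteins recruit the co-repressor Trim28, which brings in the histone methyltransferase Setdb1 and heterochromatin proteins, and the family is best known for silencing transposable elements and for rapid expansion in gene clusters. The name is structural, however, and also covers ubiquitin ligases, splicing factors and RNA-binding proteins. Alveolar macrophages are the resident phagocytes of the airspaces, where they clear surfactant and inhaled particles.

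The result depended on how the arrays were put on a common scale. Under quantile normalization, which gives every array the same distribution of signals, 19 Zfp genes were lowered with MWCNT, 0 were raised and 180 did not pass the test (limma, adjusted p under 0.05 over all 13210 features). The 19 were 9.55% of the Zfp genes, while 5.89% of all features were lowered and 6.98% raised. Under median scaling, which sets the median over all probes, detected or not, equal on every array, 3 were lowered and 3 raised. Each was 1.51% of the Zfp genes, beside 1.63% of features lowered and 12.8% raised. Zfp609, Zfp703 and Zfp551 were lowered under both scalings. The strongest differences were modest: no Zfp gene reached a log2 difference of 1 in either direction, and 6 exceeded 0.5 in size under quantile normalization.

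Promoter windows are shown for the lowered genes with the smallest adjusted p that the sequence table holds. The windows differ widely in base composition. Each window is the 250 bases before the annotated start, read 5′ to 3′ on the gene's strand, from RefSeq (GRCm38.p6). Capitals mark matches to GGGCGG (the core of the GC box), CCAAT (the box of that name), CCGGAA (the core that Ets factors recognise) and TATAAA (the TATA box), searched on both strands, and no motif letters were shared between matches in these windows.
Zfp551, chr7:12422492-12422741, minus strand: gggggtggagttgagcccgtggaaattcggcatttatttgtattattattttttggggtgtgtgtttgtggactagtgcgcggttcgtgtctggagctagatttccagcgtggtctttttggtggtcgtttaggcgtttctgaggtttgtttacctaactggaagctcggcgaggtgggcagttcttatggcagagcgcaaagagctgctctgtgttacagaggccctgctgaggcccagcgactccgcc
Zfp746, chr6:48086594-48086843, minus strand: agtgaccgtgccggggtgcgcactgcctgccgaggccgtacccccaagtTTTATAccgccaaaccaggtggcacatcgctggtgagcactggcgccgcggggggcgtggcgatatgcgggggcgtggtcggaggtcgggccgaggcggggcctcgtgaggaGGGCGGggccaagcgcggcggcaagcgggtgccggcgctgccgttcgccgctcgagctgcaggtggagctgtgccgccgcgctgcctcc
Zfp595, chr13:67332561-67332810, minus strand: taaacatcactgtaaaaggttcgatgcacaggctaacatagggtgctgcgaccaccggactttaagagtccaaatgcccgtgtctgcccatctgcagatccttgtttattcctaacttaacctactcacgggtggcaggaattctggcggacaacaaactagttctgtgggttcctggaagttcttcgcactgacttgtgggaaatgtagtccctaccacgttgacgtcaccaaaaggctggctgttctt
Zfp235, chr7:24132122-24132371, plus strand: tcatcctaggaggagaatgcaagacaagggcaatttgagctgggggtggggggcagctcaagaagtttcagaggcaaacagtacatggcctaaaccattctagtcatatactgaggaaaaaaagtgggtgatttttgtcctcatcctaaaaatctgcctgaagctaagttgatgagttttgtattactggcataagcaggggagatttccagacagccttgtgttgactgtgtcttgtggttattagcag

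The window of Zfp746 held 33 CpG dinucleotides, 1 GGGCGG match and 1 TATAAA match, here on the opposite strand. The windows of Zfp551, Zfp595 and Zfp235 held 13, 9 and 0 CpG dinucleotides and none of the 4 motifs. In all, 168 of the 199 Zfp genes had a window in the table, with 206 windows, and 12 of the 19 lowered genes had 14. Zfp windows had a median of 13 CpG dinucleotides, against 15 in windows of the other named genes tested and 6 over all 32851 windows. CCGGAA occurred in 28.2% of Zfp windows, 21.2% of windows of other tested genes and 12.0% of all windows. CCAAT occurred in 43.2%, 34.7% and 33.8% of the same sets, GGGCGG in 103 of the 206 Zfp windows and in 56.5% and 32.7% of the other sets, and TATAAA in 6.31%, 6.79% and 12.4%. Among the 14 windows of lowered genes, CCGGAA was found in 1 (7.14%) and GGGCGG in 5. These shares describe letters in the windows and were not tested.

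Before the values, several features of the arrays bear on them. Within a group, arrays correlated at 0.986 to 0.994 (control) and 0.984 to 0.993 (MWCNT) over all features. Background signal was 130 ± 5.55 in controls and 148 ± 9.01 with MWCNT (SD, n = 6, linear intensity). In an exact permutation test, two-sided, this gave p = 0.00433, or 0.00649 after adjustment over 3 measures. The share of probes detected was 38.5% ± 0.469 and 39.8% ± 0.592 (exact p = 0.00433, adjusted p = 0.00649). Most probes were thus undetected, and the median over all probes that median scaling sets equal lay among them, near the background. The number of Zfp genes detected per array did not differ beyond the spread, at 184 ± 3.31 and 185 ± 5.20 (exact p = 0.706). MWCNT arrays 5 and 6 carried signal of the Y-linked genes Eif2s3y and Kdm5d, found on no other array, and MWCNT array 5 was the MWCNT array most like the controls. Markers of resident alveolar macrophages (10 of 14 measured, none of them undetected in controls) kept their summed level, with list scores of -0.04 to 0.04 on control and -0.08 to 0.08 on MWCNT arrays. Of these markers 2 were raised (Marco and Car4) and 2 lowered (Krt79 and Cidec). A list score is the mean log2 difference from the control mean over the measured markers. List scores of T and NK cells, B cells, neutrophils and monocyte-derived macrophages were higher on every MWCNT array than on any control array. T and NK cell markers (8 of 11 measured raised) scored -0.15 to 0.20 in controls and 0.80 to 2.32 with MWCNT, with Nkg7, Cd6 and Cd28 detected on no control array. B cell markers (3 of 3 raised, detected on no control array) scored -0.12 to 0.12 and 0.31 to 4.77, neutrophil markers (3 of 5) -0.09 to 0.06 and 0.73 to 1.48, and monocyte-derived macrophage markers (8 of 9) -0.27 to 0.11 and 0.65 to 1.28. The 3 B cell markers, of 9 listed, passed the detection rule through MWCNT arrays only. The same held for Nkg7, Cd6, Cd28, S100a9, Ccr2, F13a1 and Sftpa1. For such markers the rule itself favoured a higher value with MWCNT. Epithelial markers (2 of 6) scored -0.60 to 0.54 and -0.02 to 0.84. The part of these cells in the Zfp values was not tested.

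Zfp609, Zfp703 and Zfp551 were the genes lowered under both scalings. Zfp609 encodes a nuclear protein that works with the cohesin loader Nipbl and the Integrator complex in mouse neural progenitors. Its normalized level (log2 intensity, lowest, median and highest of 6 arrays) was 6.02, 6.09 and 6.30 in controls and 4.95, 5.47 and 5.74 with MWCNT. Every MWCNT array lay below every control array, and the probe was detected on 6 control but only 3 MWCNT arrays. The log2 difference was -0.73 ± 0.12 (SE, n = 6 per group, limma adjusted p = 0.00166) under quantile normalization and -0.58 ± 0.13 (adjusted p = 0.00666) under median scaling, the largest decrease among the 199 genes under either. Without background correction it was -0.22 and in the authors' processed values -0.12, both still called.

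Zfp703, a co-repressor of the NET family whose human counterpart is amplified in breast cancer, was read by the brightest Zfp probe. Controls gave 12.17, 12.32 and 12.37 and MWCNT arrays 11.63, 11.72 and 12.14. The groups did not overlap, and the highest MWCNT array stood well apart from the other 5. The difference was -0.52 ± 0.09 (adjusted p = 0.00189), or a level 1.43-fold higher in controls, and -0.47 ± 0.12 (adjusted p = 0.0147) under median scaling. Another kept probe of Zfp703 differed by -0.50 ± 0.12. Zfp551 gave 6.18, 6.52 and 6.68 in controls and 5.59, 5.71 and 6.29 with MWCNT. Its groups overlapped through 1 MWCNT array. The difference was -0.69 ± 0.13 (adjusted p = 0.00384), and -0.48 ± 0.15 (adjusted p = 0.0385) under median scaling. Without background correction Zfp551 differed by -0.24 and in the authors' processed values by -0.13, both still called.

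Zfp746, also called Paris, is a KRAB protein degraded through Parkin that represses the mitochondrial regulator Ppargc1a. It was measured at 9.48, 9.59 and 9.64 in controls and at 9.23, 9.32 and 9.39 with MWCNT, again without overlap. The decrease of 0.26 was small but tight (-0.26 ± 0.06, adjusted p = 0.0123), and its other kept probe gave -0.29 ± 0.08. Under median scaling it was -0.12 ± 0.10 and did not pass (adjusted p = 0.456).

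The remaining 4 of the 8 lowered genes with the smallest adjusted p were Zfp41, Zfp595, Zfp182 and Zfp235. Zfp41 gave 6.29, 6.64 and 7.06 in controls and 6.09, 6.17 and 6.38 with MWCNT, a difference of -0.48 ± 0.11 (adjusted p = 0.0132). Zfp595 gave 6.91, 7.18 and 7.34 against 6.59, 6.71 and 6.995, a difference of -0.40 ± 0.10 (adjusted p = 0.0150). In both genes the lowest control array lay within the MWCNT range. Zfp182 gave 6.21, 6.52 and 6.87 against 5.79, 5.95 and 6.29 (-0.53 ± 0.13, adjusted p = 0.0161). Zfp235 gave 6.29, 6.59 and 6.69 against 5.87, 6.14 and 6.38 (-0.40 ± 0.10, adjusted p = 0.0191). Here too 1 end of the control range lay inside the MWCNT range. None of the 4 passed under median scaling, where the differences were -0.25, -0.16, -0.30 and -0.18. In the authors' processed values they were -0.11, -0.12, -0.11 and -0.085, and Zfp235 was not called there (adjusted p = 0.0582).

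**Figure D1:**
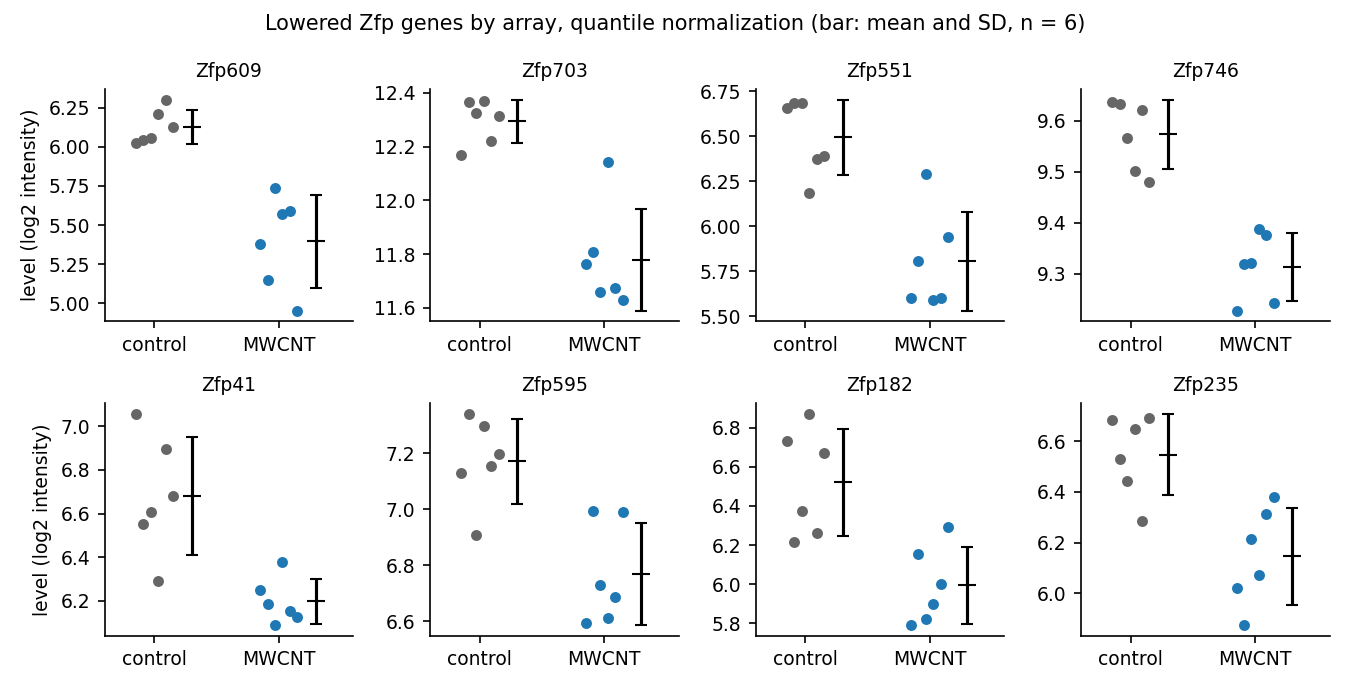
Normalized level (log2 intensity, quantile normalization) of the 8 lowered Zfp genes with the smallest adjusted p, 1 point per array, with mean and SD of 6 arrays as bars. Axes do not start at 0. Zfp609, Zfp703 and Zfp746 show no overlap of the groups (every MWCNT array lay below every control array for 2.81% of all features). In Zfp703, 1 MWCNT array lies at 12.14, apart from the others. Of the 8, Zfp609, Zfp703 and Zfp551 also passed the test under median scaling.

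The other 11 lowered genes were Zfp280d, Zfp747, Zfp748, Zfp524, Zfp629, Zfp35, Zfp128, Zfp865, Zfp451, Zfp768 and Zfp12, named after their values were seen. Over all 19 the differences ran from -0.73 to -0.26 with a median of -0.40, and 18 of the 19 were detected on all 12 arrays. Besides Zfp609, Zfp703 and Zfp746, groups did not overlap for Zfp524 (10.003, 10.20 and 10.25 against 9.66, 9.90 and 9.9995, -0.28 ± 0.08) and Zfp35 (7.60, 7.69 and 7.99 against 7.16, 7.47 and 7.58, -0.33 ± 0.10). Every MWCNT array lay below every control array for 2.51% of the Zfp genes and for 2.81% of all features. All 19 were negative under median scaling as well, with a median of -0.19. When each array was left out in turn, 9 of the 19 were called in all 12 fits. These were Zfp609, Zfp703, Zfp551, Zfp746, Zfp41, Zfp595, Zfp182, Zfp235 and Zfp280d. Without MWCNT array 1 the count of lowered genes was 10 (4.32% of features lowered), and without control array 6 it was 12 (4.47% of features). Of the lowered genes, 5 had another kept probe, and all 5 such probes were negative, 4 of them past the threshold with adjustment over all 19291 kept probes. The probe that did not pass belonged to Zfp41 (-0.21 ± 0.12, adjusted p = 0.303).

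Counts over the whole gene set must be read beside those of all features. Under quantile normalization 9.55% of the Zfp genes were lowered, where 5.89% of all 13210 features were, and 0 were raised, where 6.98% of features were. At an unadjusted p under 0.05 the counts were 44 lowered and 3 raised, beside 14.7% and 13% of all features. Every MWCNT array lay below every control array for 5 genes (2.51%, 2.81% of features) and above for 0 (4.07% of features). Under median scaling the 3 lowered and 3 raised genes were each 1.51%, beside 1.63% of features lowered and 12.8% raised. Only Zfp609 then had groups without overlap (0.503%, with 0.795% of features below and 5.55% above). Kept-probe scaling, which sets the median of the detected probes equal on every array, gave 28 lowered genes (14.1%, with 14.1% of features lowered) and 1 raised (6.12% of features). Its groups did not overlap for 7 genes below (3.52%, 6.74% of features) and for 0 above (3.1% of features), and it kept all 19 of the quantile calls. Because the contrast is part of how the gene set was defined, no test was made on these counts.

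The middle of the distribution moved with the scaling in the same direction for Zfp genes and for features as a whole. Between quantile normalization and median scaling it did not move by the same amount for both. The median log2 difference of the 199 genes was -0.09 under quantile normalization (quartiles -0.22 and 0.00087) and 0.07 under median scaling, while the median of all features was -0.02 and 0.10. With kept-probe scaling the 2 medians were -0.14 and -0.10. Relative to the features' own median the Zfp genes therefore lay 0.07 lower under quantile normalization and 0.03 lower under the other 2 scalings. Of the 199 genes, 147 (73.9%) were negative under quantile normalization, against 54.7% of features, and 67 (33.7%) under median scaling, against 30.3% of features. The sign of 80 genes changed from negative to positive between these 2 scalings.

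**Figure D2:**
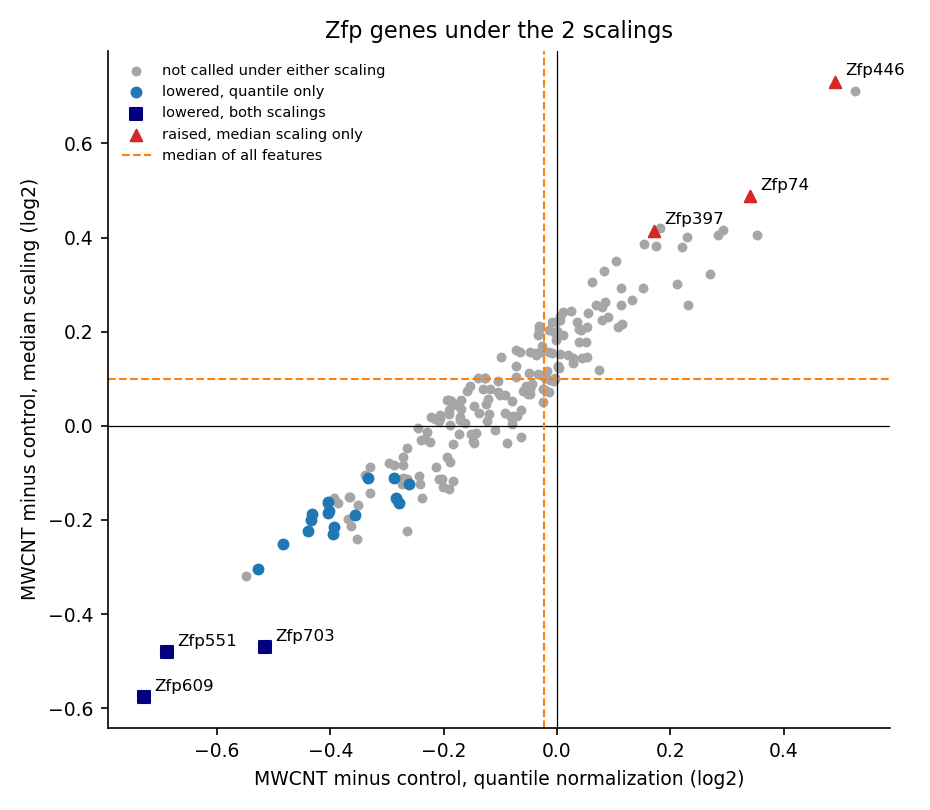
Log2 difference (MWCNT minus control) of each of the 199 Zfp genes under quantile normalization (horizontal) and median scaling (vertical), with the median of all features dashed at -0.02 and 0.10. Squares mark Zfp609, Zfp703 and Zfp551, lowered under both scalings, and triangles the 3 genes raised under median but not quantile scaling, of which Zfp446 was also raised under kept-probe scaling.

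By array, the median deviation of the Zfp genes from the control mean was -0.05 to 0.06 on the controls and -0.19 to -0.01 on the MWCNT arrays under quantile normalization, where all features gave -0.04 to -0.01 on the MWCNT arrays. MWCNT array 1 was lowest and MWCNT array 6 highest, within the control range. Under median scaling the MWCNT arrays ran from -0.06 to 0.15, and the Zfp median lay below that of all features on 5 of them, with MWCNT array 6 the exception. MWCNT array 1, the lowest under quantile normalization, also had the highest B cell score of 4.77 and a T and NK cell score of 2.32. MWCNT array 6, the highest there, scored 2.22 and 1.84. MWCNT array 5, with a Zfp median of -0.06 under quantile normalization, had the lowest scores of the MWCNT arrays, 0.31 and 0.80. The part of these cells in the values was not tested. Without MWCNT arrays 5 and 6, which carried Y-linked signal, 19 genes were lowered and 2 raised (4.78% and 7.22% of features). The Zfp median became -0.14 and that of all features -0.03.

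**Figure D3:**
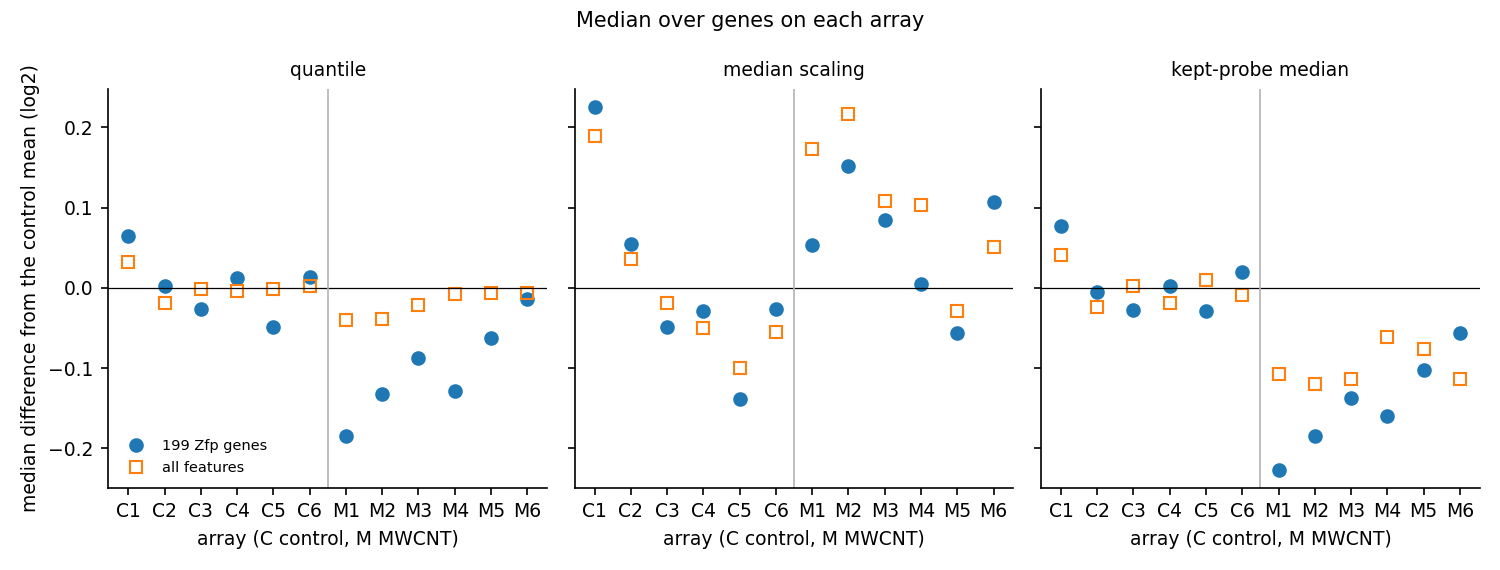
Median log2 difference from the control mean over the 199 Zfp genes (filled circles) and over all features (open squares) on each array, under quantile normalization, median scaling and kept-probe scaling. The Zfp median of MWCNT arrays lies at -0.19 to -0.01 in the first panel and at -0.06 to 0.15 in the middle one, where signs differ between arrays.

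The 3 genes raised under median scaling were Zfp446, Zfp397 and Zfp74, named after their values were seen. Zfp446, a SCAN-domain protein in its human form, gave quantile-normalized levels of 6.57, 6.66 and 7.06 in controls and 6.45, 7.36 and 7.58 with MWCNT. The MWCNT arrays spread widely and included the lowest value of all 12. The difference was 0.49 ± 0.17 (adjusted p = 0.0739), and 0.73 ± 0.19 (adjusted p = 0.0179) under median scaling. Kept-probe scaling also called it raised (0.53 ± 0.16, adjusted p = 0.0371). Another kept probe of Zfp446 gave 0.32 ± 0.14 (adjusted p over kept probes 0.155). Zfp397 differed by 0.17 ± 0.11 and Zfp74 by 0.34 ± 0.13 under quantile normalization (adjusted p = 0.348 and 0.117), and by 0.41 ± 0.11 and 0.49 ± 0.14 under median scaling (adjusted p = 0.0225 and 0.0262). The highest value of any Zfp gene under quantile normalization was that of Zfp532, at 0.53 ± 0.27, which did not pass (adjusted p = 0.222).

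Of the 6 Zfp genes with the brightest probes, Zfp703 passed the test and the other 5 did not. Brightness is a property of each probe and does not rank transcripts. Zfp710 gave 11.02, 11.17 and 11.33 in controls and 10.90, 11.15 and 11.37 with MWCNT (-0.01 ± 0.09, adjusted p = 0.940). Zfp608, which represses Rag1 in mouse thymocytes, gave 11.01, 11.13 and 11.43 against 10.63, 10.85 and 11.29 (-0.24 ± 0.12, adjusted p = 0.220). For Zfp608 the groups overlapped, and without MWCNT arrays 5 and 6 the difference was -0.40 (adjusted p = 0.0168). Zfp131, a BTB-domain protein, differed by -0.08 ± 0.07 (adjusted p = 0.525), Zfp277 by -0.02 ± 0.09 and Zfp362 by -0.0027 ± 0.07. The values of Zfp710, Zfp131, Zfp277 and Zfp362 were positive under median scaling (0.02 to 0.10).

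Among Zfp genes with well described roles, 23 of 32 listed were measured, with 3 lowered (Zfp609, Zfp703 and Zfp746) and 0 raised under quantile normalization (5.89% and 6.98% of features). Of the silencing factors, Zfp809, which recognises a retroviral primer binding site in mouse stem cells, gave 7.65, 7.98 and 8.38 in controls and 7.42, 7.59 and 8.09 with MWCNT (-0.30 ± 0.15, adjusted p = 0.227). Zfp445, which protects imprints in mouse embryos, differed by 0.03 ± 0.16. Zfp638, which silences unintegrated retroviral DNA with the HUSH complex in human cells, differed by 0.01 ± 0.11. The ranges of the groups overlapped for each of them.

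Zfp410, which drives transcription of the NuRD remodeller Chd4, gave 8.29, 8.60 and 8.85 against 8.47, 8.61 and 8.98 (0.09 ± 0.12, adjusted p = 0.685). Another kept probe of Zfp410, also detected on all 12 arrays, gave 0.33 ± 0.10 and was raised (limma adjusted p over kept probes 0.0392). Its remaining kept probes gave 0.16 ± 0.13 and 0.22 ± 0.15 and did not pass. Chd4 itself fell under quantile normalization, from 11.69 ± 0.13 (SD) to 11.40 ± 0.10 (-0.29 ± 0.08, adjusted p = 0.0248), but not past the threshold under median scaling (-0.23, adjusted p = 0.242).

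Of the sequence-specific regulators, Zfp281, a repressor tied to the pluripotency network of mouse stem cells, differed by -0.07 ± 0.11 and Zfp148, which binds GC-rich promoters, by -0.12 ± 0.14. Zfp263, a SCAN and KRAB protein, differed by 0.12 ± 0.10. Zfp219, a Sox9 partner, differed by -0.06 ± 0.14, Zfp384 by -0.08 ± 0.17 and Zfp217, which recruits the CtBP co-repressors, by 0.04 ± 0.14. Zfp292 gave 9.52, 9.65 and 10.17 against 9.37, 9.53 and 9.57 (-0.21 ± 0.10, adjusted p = 0.196). The control range of the probe used for Zfp292 was stretched by 1 high array. Another kept probe of this gene gave -0.34 ± 0.09 and was lowered (limma adjusted p over kept probes 0.0320). The remaining kept probe gave -0.28 ± 0.13 and did not pass (0.181). Zfp335, needed for maturing mouse T cells, differed by -0.18 ± 0.11, and Zfp318, which governs IgD splicing in mouse B cells, by -0.14 ± 0.09 (adjusted p = 0.316 and 0.347). Zfp827, a NuRD-binding protein, was detected on 1 control and 4 MWCNT arrays. It gave 4.86, 5.12 and 5.83 against 5.20, 5.47 and 5.76 (0.27 ± 0.15, adjusted p = 0.274).

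Among members that act outside transcription, Zfp598, the ubiquitin ligase of collided ribosomes, differed by -0.19 ± 0.10 (adjusted p = 0.222), and Zfp91, a ubiquitin ligase of the noncanonical NF-κB pathway, by -0.01 ± 0.07. Zfp207, which guides Bub3 to kinetochores, differed by 0.03 ± 0.12. The RNA-binding proteins Zfp106 and Zfp346 differed by -0.21 ± 0.13 and -0.03 ± 0.10. None passed the test. Under median scaling the signs of Zfp281, Zfp148, Zfp219, Zfp384, Zfp335, Zfp598, Zfp91, Zfp106 and Zfp346 turned, to values of 0.02 to 0.19.

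In 64 genes more than 1 probe was kept, and 60 of the 83 further probes had the sign of the probe used. The genes with the widest gap between probes were Zfp326, Zfp236, Zfp710 and Zfp367. For Zfp326, a splicing factor that travels with RNA polymerase II, the probe used gave 0.02 ± 0.08 and the other 2 gave -0.56 ± 0.13 and -0.60 ± 0.10 (adjusted p over kept probes 0.0148 and 0.00129). All 3 were detected on all 12 arrays. The mean of its probes was lowered (-0.38, adjusted p = 0.00694). For Zfp710 the probes gave -0.01 ± 0.09 and -0.54 ± 0.17, and for Zfp236 0.13 ± 0.08, -0.06 ± 0.08 and -0.42 ± 0.15. Zfp367 had 1 probe at -0.38 and another at 0.37, on 8 and 9 arrays, around -0.01 for the probe used. Which transcript each probe reads was not analysed here.

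The Zfp genes had lower signals than features in general, with a median of 7.62 against 8.47. No Zfp gene was raised in any of 3 equal classes of signal, where 10.2%, 6.4% and 4.34% of features were. In the lowest class, 88 genes had a median difference of -0.11 (features -0.03) and 9 were lowered (10.2%, features 7.63%). In the middle class 85 genes had a median of -0.12 (features -0.03), with 8 lowered (9.41%, features 6.2%). In the highest class 26 genes had a median of -0.02 (features -0.01), with 2 lowered (7.69%, features 3.84%). These values are under quantile normalization. Close to the detection threshold, 6 genes passed on exactly 3 arrays (Zfp13, Zfp322a, Zfp42, Zfp663, Zfp78 and Zfp935, signals 5.10 to 5.52), and 7 just missed it on 2 arrays (signals 4.91 to 5.31). Zfp322a and Zfp663 were detected on no control array and Zfp42, a marker of mouse stem cells also called Rex1, on no MWCNT array, so these 3 entered through 1 group only. Of the 199 genes, 157 were detected on all 12 arrays.

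**Figure D4:**
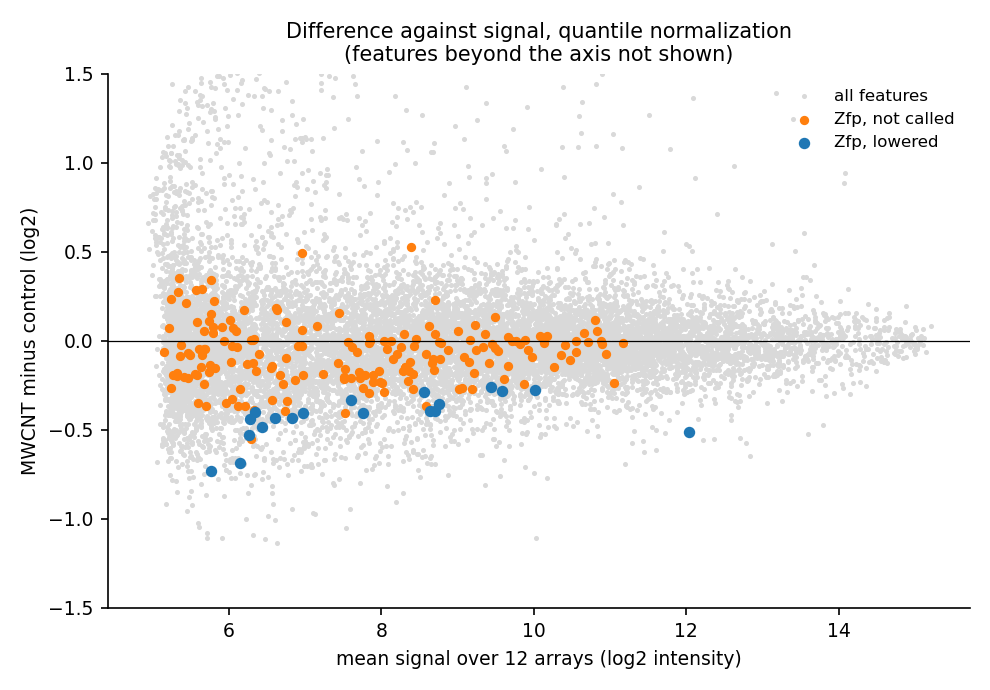
Log2 difference (MWCNT minus control, quantile normalization) against mean signal (log2 intensity, 12 arrays) for all features in grey, for the 180 Zfp genes not called and for the 19 lowered. The lowered Zfp genes run in mean signal from Zfp609 at 5.76 to Zfp703 at 12.04, and under median scaling only 3 of them pass.

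By position (GRCm38.p6), chromosome 7 held 49 of the 199 genes (24.6%), of which 8 were lowered (16.3%, with 7.56% of the 820 features there). Chromosome 17 held 22 with 0 lowered (4.66% of its features), and chromosome 13 held 17 with 2 lowered (5.87% of its features). Genes less than 500 kb from the next Zfp gene formed 11 neighbourhoods of 4 or more. The stretch on chromosome 7 from Zfp553 to Zfp646 held 10 genes, 9 of them negative and 3 lowered (Zfp768, Zfp747 and Zfp629), with a median of -0.19. The stretch on chromosome 13 from Zfp457 to Zfp738 held 9, all negative and 2 lowered (Zfp595 and Zfp748). The median of the 9 was -0.18, and the highest value -0.00093. Under median scaling these medians were -0.0023 and -0.03. The stretch from Zfp551 to Zfp446 on chromosome 7 held 5 genes from -0.69 (Zfp551) to 0.49 (Zfp446), with Zfp551 and Zfp128 lowered. Over all features 54.7% were negative and 5.89% lowered, and over all Zfp genes 73.9% and 9.55%. Clustered Zfp genes are often similar in sequence, and cross-hybridization between neighbours was not analysed here.

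**Figure D5:**
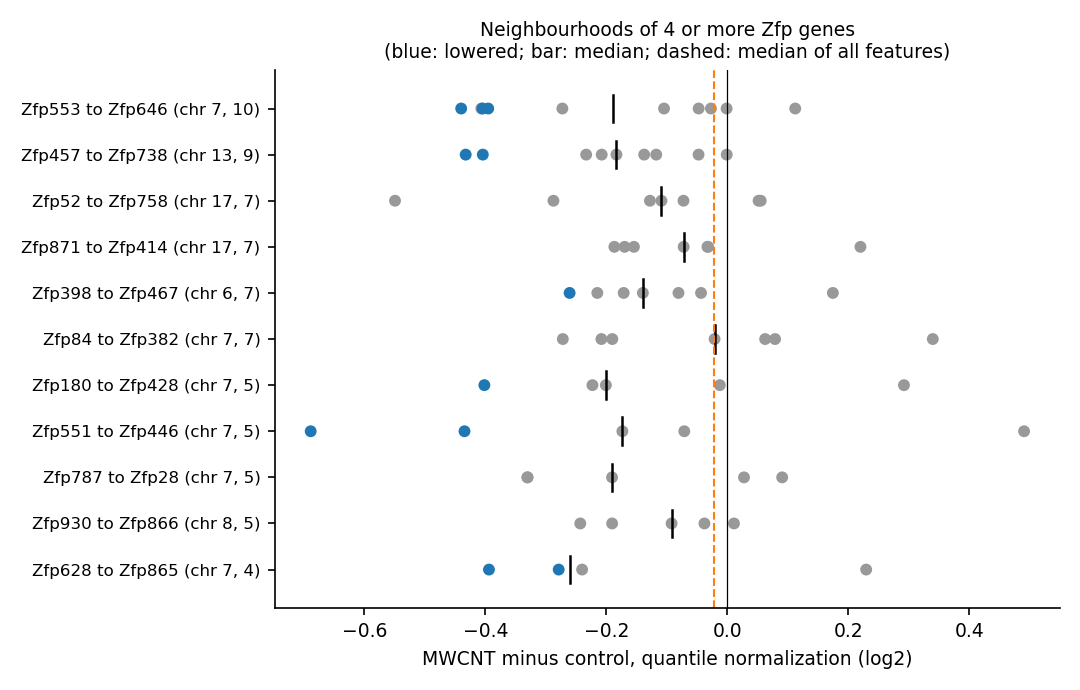
Log2 difference (MWCNT minus control, quantile normalization) of Zfp genes in the 11 neighbourhoods of 4 or more, with the median as a bar and the median of all features dashed at -0.02. The neighbourhood from Zfp457 to Zfp738 has all 9 genes below 0, with a median of -0.18 that becomes -0.03 under median scaling. Of all Zfp genes 73.9% lay below 0.

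Of 31 listed genes of the co-repressor machinery that KRAB proteins use, 20 were measured. Under quantile normalization 0 were raised and 1 was lowered (Chd4), beside 6.98% and 5.89% of features, and the median was -0.00077. Under median scaling 2 were raised and 0 lowered (12.8% and 1.63% of features), with a median of 0.11. Kept-probe scaling gave 0 raised and 4 lowered (6.12% and 14.1% of features). Trim28, the shared co-repressor, was 11.59 ± 0.11 in controls and 11.51 ± 0.19 with MWCNT (-0.08 ± 0.09, adjusted p = 0.638). Setdb1, its histone methyltransferase, was 9.46 ± 0.13 and 9.24 ± 0.09 (-0.23 ± 0.07, adjusted p = 0.0608). The genes raised under median scaling were the histone chaperone Rbbp4 (0.42, adjusted p = 0.0217) and the heterochromatin protein Cbx5 (0.44, adjusted p = 0.0381), both named after their values were seen. Under quantile normalization they gave 0.23 ± 0.14 and 0.19 ± 0.14 and did not pass.

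Other zinc finger families, sorted by name, gave these counts under quantile normalization, where 6.98% of features were raised and 5.89% lowered. Of 41 Zbtb, Zscan and Zkscan genes, which encode C2H2 proteins with a BTB or SCAN domain, 1 was raised and 3 were lowered, with a median of -0.07. The raised gene was Zbtb46 (0.46 ± 0.12, adjusted p = 0.0223), with a mean signal of 5.13. It was detected on no control array and on 3 MWCNT arrays, so it entered through 1 group only. Of 14 Zc3h genes, 1 was raised and 1 lowered (median -0.07), and of 18 Zdhhc palmitoyl transferase genes 2 were raised and 0 lowered (median 0.04). Zbtb11 fell by 0.66 ± 0.13 (log2, adjusted p = 0.00392) and was lowered under median scaling too (-0.46, adjusted p = 0.0299). Zkscan4 (-0.58 ± 0.11, adjusted p = 0.00266) did not pass there (adjusted p = 0.0550). Zc3hav1, the antiviral protein that binds CpG-rich viral RNA, rose by 0.36 ± 0.09 (adjusted p = 0.0189), and by 0.60 under median scaling (adjusted p = 0.00134). Of the CCCH decay genes left out of the set, Zfp36l1 rose by 0.53 ± 0.10 (adjusted p = 0.00363) and Zfp36 differed by -0.08 ± 0.17. These genes were named after their values were seen, and differences between families were not tested.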

How the data were processed

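RNA of 12 arrays, 6 control and 6 MWCNT mice, was analysed from 2 deposited tables. The scanner table holds, per the file headers, a signal intensity and a detection p-value per probe and array, and its intensity values were not normalized between arrays as deposited. The authors' processed intensity table, for which the submitters' processing notes name lumi (version and settings not given in the sources used here), was used as an alternative. Its columns were linear, with medians of 227.8 and a lowest value of 200.3, and were not centred by gene. Where that offset comes from is unknown.

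The scanner table was handled with limma 3.58.1 (R 4.3.3, statmod 1.5.0): neqc (negative controls inferred from detection p-values, offset 16, quantile normalization, log2), probes detected at p under 0.05 on at least 3 arrays (19291 of 45281), and the kept probe with the highest mean for each gene, giving 10143 named genes and 3067 unnamed probes. Gene names come from the platform annotation, in which 34885 probes had 1 symbol, 18 several and 10378 none. All 199 Zfp genes matched RefSeq (GRCm38.p6), by symbol or, failing that, by Entrez gene identifier. Groups were compared with lmFit and eBayes, two-sided, with Benjamini-Hochberg adjustment over 13210 features. A difference is the MWCNT mean less the control mean on the log2 scale, with the fit's SE. The number of arrays limits the precision.

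Median scaling, kept-probe scaling, other background corrections, filters, probe rules, variance models, array weights, a replicate block and leaving out arrays were alternatives. The genes named are up to 8 lowered and up to 8 raised with the smallest adjusted p (no gene was raised under quantile normalization), the 6 brightest, the 3 brightest not called, those called under both scalings, the 4 whose probes differed most, and those on a list of known roles. The Zfp genes and all lists were chosen with earlier results of these data known. Protein features were not analysed here. Promoters were scanned in Python 3.11.15, and figures drawn with matplotlib 3.10.9.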

Additional observations from a re-analysis of the deposited data

Results flagged for a closer look

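Of 76 groups of 6 arrays (the named Zfp genes in each group and the array measures) 3 held a single array far from the others, where chance alone gives about 1 in 20 groups. The level of Zfp703 on MWCNT array 4 was 12.14, and the next highest MWCNT array lay at 11.81. Zfp91 on MWCNT array 2 was 8.96, with the next at 8.74. Zfp292 on control array 1 was 10.17, with the next at 9.75.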

How the results depend on the processing

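All alternatives were run on the whole table of features. Median scaling gave 3 raised and 3 lowered Zfp genes and turned the median log2 difference to 0.0658, and for the KRAB co-repressor genes it gave 2 raised and 0 lowered. Kept-probe scaling gave 1 raised and 28 lowered Zfp genes, a median of -0.136 and 4 lowered co-repressor genes. Median differences were -0.0514 without background correction, -0.0295 in the authors' processed values, -0.0484 without a probe filter and -0.142 without the arrays with Y-linked signal. Raised Zfp genes numbered 1 with the mean of the kept probes, 1 with array weights and 2 without the arrays with Y-linked signal. Lowered co-repressor genes numbered 3 without background correction and 3 in the authors' table, each with 1 raised. They numbered 2 with normexp, 2 with array weights, 2 when variances were fitted with trend and robustly, and 0 without the arrays with Y-linked signal. In the other settings the count of lowered Zfp genes was 13 to 22. Of all features, 1.63% were lowered and 12.8% raised under median scaling, and 14.1% and 6.12% under kept-probe scaling. Without the arrays with Y-linked signal 4.78% were lowered and 7.22% raised. For the remaining settings the shares of features are not given here, so those counts do not compare the listed genes with features.

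Leaving out each array in turn gave 10 to 19 lowered and 0 to 1 raised Zfp genes, medians of -0.109 to -0.0826, and 0 to 2 lowered co-repressor genes. The lowest count, 10, was without MWCNT array 1 (4.32% of features lowered), and 12 were lowered without control array 6 (4.47% of features). With these arrays out fewer samples were tested, and the cause was not tested further. The labels give same-numbered arrays nothing in common but the number. Their deviations correlated at -0.181 to 0.150, with 4 of 6 pairs over 0.1, and 6 of 12 arrays correlated best with their own number. Whether such arrays were processed together is not known from the labels and was not tested. With the replicate number as a block 13 genes were lowered and 0 raised, with a median of -0.0922. Of the 19, 12 were also called there, without Zfp524, Zfp12, Zfp451, Zfp768, Zfp35, Zfp128 and Zfp748. Shares of features are not given here for the block and the other leave-one-out fits. Those counts therefore do not compare Zfp genes with features. A slide block was not run because the headers give no slide.

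Of 416 values of named genes over 12 other settings, 377 kept sign and side of the threshold, 6 lost a call with the same sign and 32 changed sign, and 2 gained a call, 1 of them among those that changed sign. The 8 lowered genes kept their sign in every setting run, but not their size: over these settings Zfp609 ranged from -0.78 to -0.12, Zfp551 from -0.69 to -0.13, Zfp182 from -0.60 to -0.11, Zfp235 from -0.50 to -0.085, Zfp41 from -0.48 to -0.11, Zfp595 from -0.44 to -0.12, Zfp746 from -0.33 to -0.12 and Zfp703 from -0.67 to -0.45. Calls were lost by Zfp746, Zfp41, Zfp595, Zfp182 and Zfp235 under median scaling and by Zfp235 in the authors' values (-0.09, adjusted p = 0.0582), and calls were gained by Zfp608 without the arrays with Y-linked signal and by Zfp326, with a change of sign, under the mean of the kept probes. Under median scaling the sign turned for Zfp710 (0.071), Zfp131 (0.020), Zfp277 (0.077), Zfp362 (0.099), Zfp367 (0.20), Zfp281 (0.10), Zfp148 (0.025), Zfp91 (0.16), Zfp106 (0.023), Zfp598 (0.024), Zfp335 (0.044), Zfp219 (0.034), Zfp384 (0.052) and Zfp346 (0.19). Kept-probe scaling turned Zfp367 (0.0013), Zfp326 (-0.052), Zfp207 (-0.058) and Zfp638 (-0.050), and array weights turned Zfp362 (0.028), Zfp207 (-0.029) and Zfp638 (-0.0073). The mean of the kept probes turned Zfp326 (-0.38), Zfp236 (-0.12), Zfp281 (0.051) and Zfp638 (-0.12). With MWCNT arrays 5 and 6 left out, the sign turned for Zfp362 (0.032), Zfp326 (-0.014), Zfp207 (-0.070), Zfp91 (0.0063), Zfp638 (-0.13), Zfp445 (-0.025) and Zfp410 (-0.041). For each of these the cause was not tested.

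Leaving out 1 array turned the sign of 42 of 420 values of named genes. The values then ranged from -0.20 to 0.0021 for Zfp148, -0.042 to 0.076 for Zfp207, -0.058 to 0.097 for Zfp217, -0.13 to 0.047 for Zfp219, -0.070 to 0.021 for Zfp277, -0.020 to 0.059 for Zfp326, -0.073 to 0.027 for Zfp346, -0.039 to 0.035 for Zfp362, -0.086 to 0.035 for Zfp367, -0.18 to 0.026 for Zfp384, -0.045 to 0.13 for Zfp445, -0.075 to 0.060 for Zfp638, -0.057 to 0.036 for Zfp710 and -0.051 to 0.010 for Zfp91. Zfp827 passed without control array 2 (0.40, adjusted p = 0.0451). Signal over background limits the dim genes: 42 of the 199 Zfp genes were detected on fewer than 12 arrays.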
